A study of Homo sapiens with 24 samples.

Results

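UNC5B, FLT1, APLNR, TAC3, PGR, KCNJ16, TPRXL and LINC01028 are 8 of the 21925 gene entries counted in K562 cells in which GATA1, or a putative enhancer of it, was repressed. They were chosen by measured values: receptor, ligand and channel genes, with a homeobox-like gene and a non-coding neighbour, whose counts in these same libraries had shown large falls or differences between guides. The choice had no numeric threshold, so no gene lies just inside or just outside it. Their levels and changes are therefore given as a description, with no p-value. All 8 passed the filter on low counts that left 13147 genes for testing.

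GATA1 is a zinc finger factor of red cell and megakaryocyte precursors that binds GATA motifs and both switches genes on and holds others silent. Several of the 8 genes are better known outside the blood lineages. UNC5B is a netrin receptor of growing axons and vessels, FLT1 (VEGFR1) a receptor of the VEGF family that also acts as a decoy, APLNR the receptor for apelin, and PGR the nuclear receptor for progesterone. TAC3 encodes the precursor of neurokinin B, a tachykinin peptide, and KCNJ16 a subunit (Kir5.1) of inward rectifier potassium channels. TPRXL is a homeobox-like gene of the tetrapeptide repeat family, and LINC01028 is a long non-coding RNA gene next to KCNJ16.

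APLNR and TAC3 were lower with every targeting guide than in every control library, whichever control libraries were used. PGR was close to even over the controls and was lowest with the stronger of the guides against the GATA1 start site, at 6.29 ± 0.101 CPM (SD, n = 3) against 16.4 ± 1.57 (n = 12) in controls. CPM is the count per gene brought to a common library size, with totals scaled by TMM. UNC5B was lowest with that guide too, but NC-Guide1 stood above the other control guides and raised its control mean. FLT1 moved in opposite ways according to the control libraries chosen: with the start site guides its log2 change was -0.16 against all controls and 1.54 against 4 of them. KCNJ16 and LINC01028, which lie side by side on chromosome 17, varied together over the libraries. Their means were lowest with the enhancer guides. A control library, NC-Guide3 replicate 3, was as low or lower, and libraries of the stronger start site guide overlapped with those of the enhancer guides.

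The cells were K562, a human line from a chronic myeloid leukaemia in blast crisis with erythroid character. All 8 groups of cells carried the same CRISPR interference system, a nuclease-dead Cas9 fused to the KRAB repressor, switched on by doxycycline for 24 hours, and differed in their single guide RNA (sgRNA). Targeting guides were GATA1TSS-Guide1 and GATA1TSS-Guide2, against the start site of GATA1, and eHDAC6-Guide1 and eHDAC6-Guide2, against the putative enhancer eHDAC6. The controls were 4 non-targeting guides, NC-Guide1 to NC-Guide4, so the controls also carried the repressor and received doxycycline. Each guide had 3 biological replicates, which gives 6 libraries per targeted element and 12 control libraries, each made from 10000 cells. Where in the genome each guide binds was not analysed here, and repression of other sites was not tested.

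The targeted gene was checked first. GATA1 stood at 363 ± 28.9 CPM (n = 12) in controls, 247 and 260 CPM with eHDAC6-Guide1 and eHDAC6-Guide2, 117 with GATA1TSS-Guide1 and 53.1 with GATA1TSS-Guide2 (n = 3 each). HDAC6, whose name the enhancer carries, was lower with eHDAC6 and higher with GATA1TSS. Its level was 175 ± 23.1 CPM (n = 12) in controls, 138 ± 9.05 with eHDAC6 and 254 ± 35.2 with GATA1TSS (n = 6 each). The part of HDAC6 in the levels below was not tested. Total counts ran from 4290343 (GATA1TSS-Guide2 replicate 2) to 23205811. The control libraries fell into a set of 8 (the 6 libraries of NC-Guide1 and NC-Guide2, with NC-Guide3 replicate 1 and NC-Guide4 replicate 1) and a set of 4 (NC-Guide3 replicates 2 and 3, NC-Guide4 replicates 2 and 3). That division was found in the counts (first principal component of the controls, the 8 genes left out, 26.0% of the variance). It follows guide and replicate number as listed. The labels name neither a day nor a sequencing run, so its source is not known. Integrated stress response genes were higher in the 8 than in the 4 for 13 of 13 measured genes (median log2 difference 1.56) and globins for 10 of 10 (median 0.67), against a median of 0.01 over all genes. Erythroid markers were measured in every library (10 of 10 in the table used here, summed level 6429 to 14640 CPM).

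Markers of the cells in which several of these receptors are best known were low. Of 6 endothelial markers 5 averaged under 1 CPM, with CDH5 at a mean of 0.0210 and KDR at 0.0577 CPM over the 24 libraries. Only TIE1, at 1.63 CPM, was above that, and the summed endothelial level was 1.58 to 3.17 CPM in controls, 1.46 to 3.55 with eHDAC6 and 1.61 to 4.78 with GATA1TSS. Among 5 neuronal markers NEFL had no count in any library and SYP averaged 3.03 CPM, with sums of 2.21 to 5.54, 1.81 to 2.84 and 1.66 to 3.42 CPM in the same order. Summed stromal markers (5 genes, mostly COL1A1) were 5.91 to 22.2, 6.60 to 15.5 and 11.4 to 33.2 CPM, and summed epithelial markers (6 genes, mostly EPCAM) 51.4 to 83.4, 56.6 to 71.7 and 41.6 to 54.0 CPM. The part of these lists in the levels below was not tested. In bulk RNA, fewer cells with a transcript and less of it per cell cannot be told apart.

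**Figure D1:**
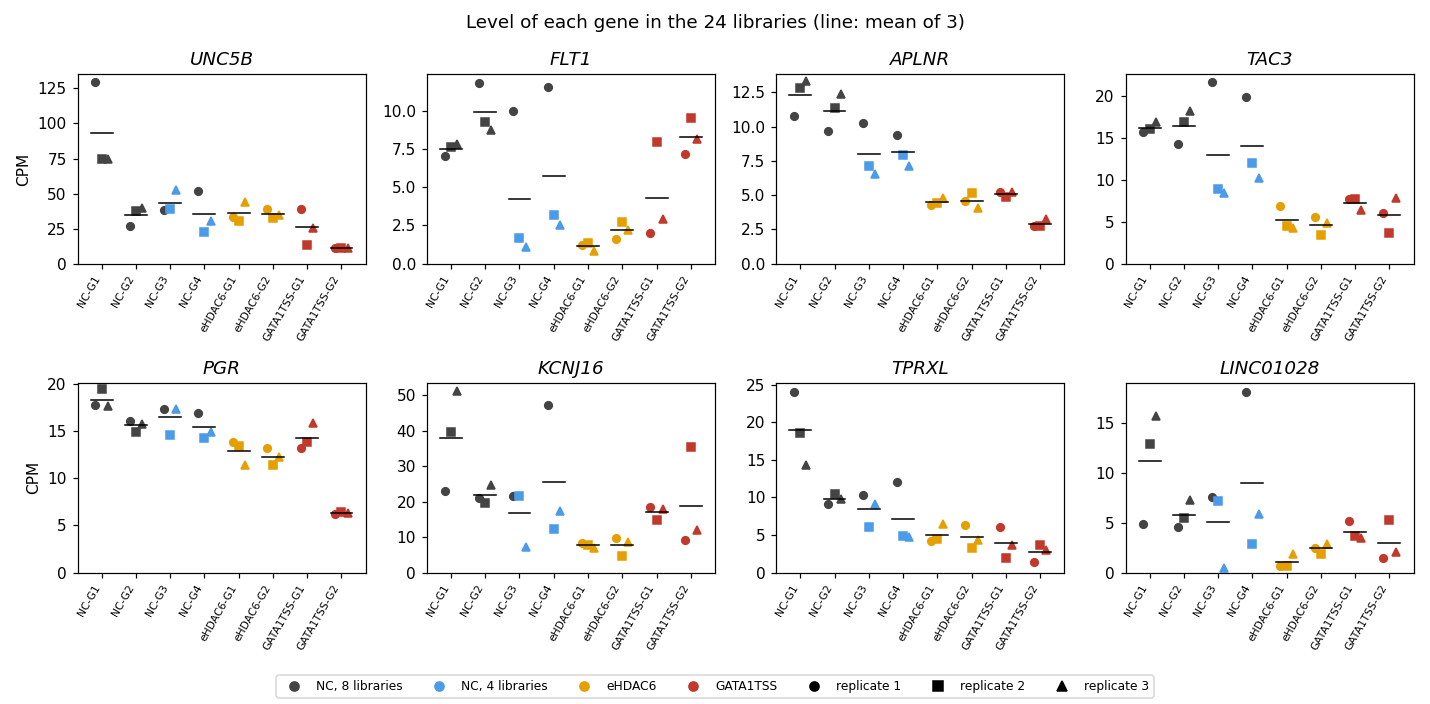
Level of each gene (CPM, vertical axis, linear and separate for each gene) in the 24 libraries, by guide RNA. Points are libraries, their shape gives the replicate number, black lines are means of 3, and the control libraries are coloured by the set of 8 or of 4 to which they belong. For FLT1 the 4 control points at 1.11 to 3.17 CPM lie with the eHDAC6 points, and for UNC5B the NC-Guide1 points lie above all others.

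UNC5B, on the plus strand of chromosome 10 (72972292 to 73062635, hg19), encodes a dependence receptor for netrins. With NC-Guide1 its levels were 129, 75.0 and 74.3 CPM in replicates 1 to 3, and with NC-Guide2 26.9, 37.7 and 39.3. With NC-Guide3 they were 38.0, 38.7 and 52.8, and with NC-Guide4 52.0, 22.7 and 30.7 CPM. The NC-Guide1 libraries stood above all 9 other control libraries, which shared 1 range. With eHDAC6-Guide1 the levels were 33.5, 30.1 and 44.2 CPM, and with eHDAC6-Guide2 39.3, 32.4 and 34.7. GATA1TSS-Guide1 gave 38.9, 12.99 and 25.7 CPM and GATA1TSS-Guide2 11.2, 11.4 and 11.2. The eHDAC6 libraries thus lay within the range of the other control guides, while the 3 GATA1TSS-Guide2 libraries lay below every control library and were nearly equal.

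The edgeR log2 change of UNC5B against all controls was -1.46 (SE 0.19) with GATA1TSS and -0.39 (SE 0.18) with eHDAC6. Taken against each control guide alone, the GATA1TSS change ran from -2.43 against NC-Guide1 to -1.03, negative against 4 of 4 guides, and the eHDAC6 change from -1.37 to 0.04, negative against 2 of 4. Against the 4 control libraries the changes were -1.03 (SE 0.19) and 0.03 (SE 0.18). By guide, GATA1TSS-Guide2 gave -2.06 and GATA1TSS-Guide1 -0.86 against all controls, a difference of -1.21 (SE 0.31). Within GATA1TSS-Guide1 the replicates spread over a 2.99-fold range, and the lowest, replicate 2, was also that with the least GATA1 (96.17 CPM, against 130.4 and 123.2). With GATA1TSS-Guide2 the UNC5B levels were too close to rank the replicates. Its replicate 2 had the least GATA1 (42.09 CPM, against 60.21 and 57.01). UNC5B stood there at 11.38 CPM (50 counts), against 11.18 and 11.21. Ligands, other receptors and effectors of the netrin pathway were looked at as well. Of 16 in the table used here 8 were tested, and only NTN4, a netrin of basement membranes, changed with GATA1TSS: it rose by 0.32 (SE 0.08, edgeR adjusted p = 0.00229, 6 of 6 libraries) and not against the 4 controls (0.22, edgeR adjusted p = 0.181). With eHDAC6 none of the 8 passed, by edgeR or DESeq2, and none had an unadjusted p under 0.05. Of all tested genes 13.5% rose and 13.7% fell with GATA1TSS, and 15.8% and 15.3% with eHDAC6.

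FLT1 (chromosome 13, 28874483 to 29069265, minus strand, hg19) encodes a VEGF receptor with a full-length form and shorter, soluble forms. The deposited models list 4 transcripts from 1 start, and a count per gene does not separate them. With NC-Guide1 its levels were 7.03, 7.67 and 7.82 CPM and with NC-Guide2 11.9, 9.28 and 8.76. With NC-Guide3 they were 9.98, 1.69 and 1.11 CPM, and with NC-Guide4 11.6, 3.17 and 2.55. In these last guides the first replicate thus matched NC-Guide1 and NC-Guide2, and the other replicates did not. eHDAC6-Guide1 gave 1.21, 1.33 and 0.835 CPM and eHDAC6-Guide2 1.59, 2.76 and 2.19. With GATA1TSS-Guide1 the levels were 1.99, 7.96 and 2.90, and with GATA1TSS-Guide2 7.22, 9.56 and 8.17 CPM. The lowest library, eHDAC6-Guide1 replicate 3, rested on 11 counts and the highest eHDAC6 library on 32, so these levels are coarse.

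FLT1 therefore had a low level in the 4 controls (mean 2.13 ± 0.913 CPM) and with eHDAC6 (1.65 ± 0.704, n = 6) and a high level in the 8 controls (9.25 ± 1.79) and with GATA1TSS-Guide2 (8.32 ± 1.18, n = 3). GATA1TSS-Guide1 held both, with replicate 2 at the high level. Each of the 4 controls lay below each of the 8. With eHDAC6 the log2 change was -2.07 (SE 0.41) against all controls, -2.60 (SE 0.25) against the 8 and -0.37 (SE 0.35) against the 4. With GATA1TSS it was -0.16 (SE 0.33), -0.69 (SE 0.20) and 1.54 (SE 0.30) in the same order. The sign of the GATA1TSS change against single control guides was negative for 2 and positive for 2. Leaving out 1 library moved the GATA1TSS change of FLT1 between -0.57, without GATA1TSS-Guide1 replicate 2, and 0.24, without NC-Guide3 replicate 1. Compared directly, with no control level in the contrast, eHDAC6 was lower than GATA1TSS by a log2 difference of -1.91 (SE 0.45).

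Ligands and co-receptors were looked at beside the receptor. Of 7 genes of the VEGF pathway in the table used here 4 were tested, and 1 rose and 1 fell with each element. Over all tested genes 13.5% rose and 13.7% fell with GATA1TSS, and 15.8% and 15.3% with eHDAC6. VEGFA, the main vascular growth factor of the family, fell by 0.38 with GATA1TSS (SE 0.10, edgeR adjusted p = 0.00697) and by 0.32 with eHDAC6 (SE 0.10, edgeR adjusted p = 0.0179), each in 6 of 6 libraries. VEGFB, a ligand that binds FLT1, rose by 0.24 (SE 0.07, edgeR adjusted p = 0.0169) and by 0.35 (SE 0.07, edgeR adjusted p = 0.000961). None of the 4 passed against the 4 controls, where none had an unadjusted p under 0.05 and VEGFA differed by 0.01 and 0.06. The call of VEGFA with eHDAC6 was lost without eHDAC6-Guide1 replicate 2, eHDAC6-Guide2 replicate 2 or eHDAC6-Guide2 replicate 3, and that of VEGFB with GATA1TSS without GATA1TSS-Guide2 replicate 3.

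APLNR, a G protein-coupled receptor gene on the minus strand of chromosome 11 (57001052 to 57004927, hg19), gave the steadiest values among the receptors together with PGR. In the 8 controls its level ran from 9.35 to 13.3 CPM with a median of 11.1, and in the 4 controls the values were 7.15, 6.52, 7.93 and 7.13. eHDAC6-Guide1 gave 4.28, 4.44 and 4.78 CPM and eHDAC6-Guide2 4.54, 5.17 and 4.08. With GATA1TSS-Guide1 the levels were 5.20, 4.83 and 5.23, and with GATA1TSS-Guide2 2.75, 2.73 and 3.23 CPM. All 12 libraries with a targeting guide were below the lowest control, and the 3 of GATA1TSS-Guide2 were below all others. The log2 change was -1.33 (SE 0.11) with GATA1TSS and -1.10 (SE 0.11) with eHDAC6 against all controls, and -0.89 (SE 0.13) and -0.66 (SE 0.13) against the 4. Against single control guides it stayed between -1.67 and -1.04 and between -1.45 and -0.82. GATA1TSS-Guide2 was below GATA1TSS-Guide1 by -0.79 (SE 0.19), and the eHDAC6 guides differed by 0.03 (SE 0.19). GATA1TSS-Guide1, with GATA1 at 32.1% of the control mean, gave APLNR 51.5% of its control mean, and the eHDAC6 guides, with GATA1 at 68.1% and 71.7%, gave 45.5% and 46.5%. The replicates of GATA1TSS-Guide1 and eHDAC6-Guide2 overlapped for APLNR, so this pair was not separated. Those of eHDAC6-Guide1, up to 4.78 CPM, lay just below those of GATA1TSS-Guide1, from 4.83 CPM.

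TAC3 (chromosome 12, 57403781 to 57410344, minus strand, hg19) encodes the neurokinin B precursor and is known as a peptide gene of hypothalamus and placenta. Its promoter is shown because the letters of a GATA motif lie close to its start. The RefSeq window from 250 bases before to 50 bases after the start, chr12:57016480-57016779 on the minus strand of GRCh38.p14, is printed 5′ to 3′ with the motif in capitals.
TAC3 promoter: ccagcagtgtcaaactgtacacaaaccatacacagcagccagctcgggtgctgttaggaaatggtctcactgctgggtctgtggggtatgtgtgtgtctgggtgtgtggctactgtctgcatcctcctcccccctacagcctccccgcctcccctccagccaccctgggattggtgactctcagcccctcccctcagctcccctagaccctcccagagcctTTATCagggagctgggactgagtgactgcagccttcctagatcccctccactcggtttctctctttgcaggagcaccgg
The letters searched were GATAA on either strand, which on the printed strand reads GATAA or TTATC. TAC3 has 1 match, 29 bases before the start, and 22.7% of 35116 RefSeq promoters of this length have at least 1. A match is a description of these letters, not a binding site. Promoter entries were found for 5 of the 8 genes, and the windows of FLT1 (1) and PGR (3) have no match.

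In the 8 controls TAC3 ran from 14.2 to 21.6 CPM (median 16.8), and the 4 controls stood at 8.84, 8.37, 11.97 and 10.1. Each of the 4 was below each of the 8. eHDAC6-Guide1 gave 6.90, 4.44 and 4.25 CPM and eHDAC6-Guide2 5.597, 3.36 and 4.84. GATA1TSS-Guide1 gave 7.71, 7.65 and 6.42 and GATA1TSS-Guide2 6.01, 3.64 and 7.79 CPM. All 12 targeted libraries lay below all 12 controls, the nearest being 7.79 against 8.37 CPM. The targeting guides overlapped with one another, apart from GATA1TSS-Guide1 and eHDAC6-Guide2. Every GATA1TSS-Guide1 library, from 6.42 CPM, lay above every eHDAC6-Guide2 library, up to 5.597 CPM. Mean GATA1 was 117 CPM with GATA1TSS-Guide1 and 260 CPM with eHDAC6-Guide2. The log2 change of TAC3 against all controls was -1.14 (SE 0.19) with GATA1TSS and -1.59 (SE 0.20) with eHDAC6. Against the 4 it was -0.53 (SE 0.16) and -0.99 (SE 0.17), and the control sets themselves differed by 0.82. Per kilobase of exon TAC3 had the highest control level of the 8 genes, 15.6 ± 4.47 CPM per kb (n = 12), and FLT1 the lowest, 0.572 ± 0.317.

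Of 8 further genes of the apelin and tachykinin systems in the table used here 5 were tested, and none passed with GATA1TSS (edgeR and DESeq2, and none at an unadjusted p under 0.05). MME and TACR1 changed with eHDAC6, where 15.3% of all tested genes fell. MME, the endopeptidase neprilysin, fell by 0.63 (SE 0.17, edgeR adjusted p = 0.0062, 6 of 6 libraries), and TACR1, the receptor preferred by substance P, fell by 1.87 (SE 0.48, edgeR adjusted p = 0.0044, 6 of 6 libraries) from 0.861 ± 0.484 to 0.247 ± 0.188 CPM. Neither passed by edgeR with eHDAC6 against the 4 controls, where the changes were 0.08 for MME and -0.95 for TACR1, while MME was then higher with GATA1TSS by 0.66 (SE 0.15, edgeR adjusted p = 0.00587, 6 of 6 libraries). APLN itself, the ligand of APLNR, was below the filter.

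PGR (chromosome 11, 100900355 to 101000544, minus strand, hg19) encodes the progesterone receptor. In controls its levels were 17.8, 19.4 and 17.6 CPM with NC-Guide1, 16.1, 14.9 and 15.8 with NC-Guide2, 17.4, 14.6 and 17.3 with NC-Guide3 and 16.9, 14.3 and 14.9 with NC-Guide4. The highest was 1.36-fold the lowest, against 10.7-fold for FLT1. eHDAC6-Guide1 gave 13.8, 13.4 and 11.5 CPM and eHDAC6-Guide2 13.2, 11.4 and 12.3. GATA1TSS-Guide1 gave 13.2, 13.8 and 15.8 and GATA1TSS-Guide2 6.18, 6.37 and 6.32 CPM. Every eHDAC6 library was below every control, GATA1TSS-Guide1 overlapped with the controls, and GATA1TSS-Guide2 stood alone. The log2 change was -0.38 (SE 0.08) with eHDAC6, -0.20 (SE 0.09) with GATA1TSS-Guide1 and -1.39 (SE 0.11) with GATA1TSS-Guide2 against all controls. Against the 4 the values were -0.28 (SE 0.10), -0.10 (SE 0.11) and -1.29 (SE 0.13). The start site guides differed by -1.18 (SE 0.13), and the change for GATA1TSS as a whole, -0.79, is the mean of unlike guides.

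Exons of PGR share 737 bases with an antisense gene, LOC101054525, whose start lies 0.014 kb from that of PGR, and whether counting used the strand is not given in the sources used here. LOC101054525 was counted at 0.768 ± 0.340 CPM in controls and 0.411 ± 0.390 with GATA1TSS, where it fell by 1.38 (SE 0.43, edgeR adjusted p = 0.0165, 5 of 6 libraries). That call was lost without GATA1TSS-Guide2 replicate 3, and whether reads over the shared bases were told apart is not known.

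Among partners of the steroid receptors 12 of 13 in the table used here were tested. With GATA1TSS 2 rose and 4 fell, where 13.5% of all tested genes rose and 13.7% fell. With eHDAC6 1 rose and 7 fell, where 15.8% rose and 15.3% fell. ESR2, oestrogen receptor beta, fell by 0.93 (SE 0.18, edgeR adjusted p = 0.000351) and by 0.78 (SE 0.18, edgeR adjusted p = 0.00227), each in 6 of 6 libraries, from 6.58 ± 2.02 CPM in controls. PGRMC2, a membrane-associated progesterone-binding protein, fell by 0.34 (SE 0.06, edgeR adjusted p = 9.02e-05) and by 0.24 (SE 0.06, edgeR adjusted p = 0.00366), and its relative PGRMC1 fell with eHDAC6 by 0.28 (SE 0.06, edgeR adjusted p = 0.00119). HSP90AA1, a chaperone of steroid receptors, rose with GATA1TSS by 0.24 (SE 0.08, edgeR adjusted p = 0.0275), a call lost without GATA1TSS-Guide1 replicate 2 or 3 or GATA1TSS-Guide2 replicate 2. Against the 4 controls 2 genes fell with GATA1TSS, PGRMC2 by 0.22 (SE 0.07, edgeR adjusted p = 0.034) and FKBP4, which was named after its values had been seen, by 0.30 (SE 0.06, edgeR adjusted p = 0.000713). In that comparison 5.39% of all tested genes fell. With eHDAC6 against the 4 none of the 12 passed in edgeR or had an unadjusted p under 0.05, and ESR2 then differed by -0.44 and -0.30 with the elements, neither called.

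KCNJ16 (chromosome 17, 68071366 to 68131746, plus strand, hg19) encodes Kir5.1, which forms channels together with other Kir subunits. LINC01028 (68047412 to 68064236, same strand) ends 7.13 kb before its first start. Both are transcribed in the same direction, and the models of KCNJ16 list 8 transcripts from 2 starts 29.6 kb apart, which the counts do not separate. The promoters are shown because both have the GATAA letters near the start: LINC01028 3 matches, 104 bases before and 25 and 35 bases after it, and the first KCNJ16 start 1 match, 26 bases before it. The windows are chr17:70051021-70051320 and chr17:70074975-70075274, both on the plus strand of GRCh38.p14 in RefSeq, with the motif in capitals. The other KCNJ16 windows in RefSeq have no match. Of all RefSeq promoters of this length 22.7% have at least 1. G and C make up 39.0% of the LINC01028 window and 47.0% of that of the first KCNJ16 start, against a median of 58.7% over all promoters.
LINC01028 promoter: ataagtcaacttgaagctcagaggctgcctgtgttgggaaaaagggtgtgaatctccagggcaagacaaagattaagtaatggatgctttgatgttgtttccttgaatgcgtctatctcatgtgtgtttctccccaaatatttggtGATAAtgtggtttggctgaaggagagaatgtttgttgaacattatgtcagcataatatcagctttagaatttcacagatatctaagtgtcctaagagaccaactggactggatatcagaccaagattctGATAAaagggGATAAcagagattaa
KCNJ16 promoter, first start: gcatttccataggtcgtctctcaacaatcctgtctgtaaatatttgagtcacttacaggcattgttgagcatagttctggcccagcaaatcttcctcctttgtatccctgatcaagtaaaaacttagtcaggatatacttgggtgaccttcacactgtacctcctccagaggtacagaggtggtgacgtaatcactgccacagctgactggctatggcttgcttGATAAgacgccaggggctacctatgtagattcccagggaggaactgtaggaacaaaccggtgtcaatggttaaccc

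With NC-Guide1 KCNJ16 was counted at 22.96, 39.5 and 51.2 CPM and with NC-Guide2 at 21.1, 19.6 and 24.7. NC-Guide3 gave 21.6, 21.6 and 7.33 CPM and NC-Guide4 47.3, 12.4 and 17.3. Replicates of a control guide differed up to 3.81-fold, so the controls cover most of the range of the whole set. eHDAC6-Guide1 gave 8.36, 7.63 and 7.06 CPM and eHDAC6-Guide2 9.83, 4.57 and 8.70. GATA1TSS-Guide1 gave 18.5, 14.9 and 17.9, and GATA1TSS-Guide2 9.05, 35.5 and 11.9 CPM. The eHDAC6 libraries formed a narrow low range that 1 control, NC-Guide3 replicate 3, entered, and GATA1TSS-Guide2 replicate 2, the library of lowest depth (156 counts of this gene), stood above the other GATA1TSS libraries. The log2 change was -1.67 (SE 0.29) with eHDAC6 and -0.56 (SE 0.27) with GATA1TSS against all controls, and -0.93 (SE 0.29) and 0.16 (SE 0.28) against the 4. Without GATA1TSS-Guide2 replicate 2 the GATA1TSS change was -0.88.

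LINC01028 showed the widest spread of the 8 genes, with an SD of 1.05 on the log2 scale between replicates of a guide, against 0.11 for PGR. Its levels were 4.88, 12.9 and 15.7 CPM with NC-Guide1, 4.54, 5.44 and 7.27 with NC-Guide2, 7.56, 7.21 and 0.445 with NC-Guide3 and 18.1, 2.81 and 5.85 with NC-Guide4. eHDAC6-Guide1 gave 0.639, 0.621 and 1.90 CPM (10, 7 and 25 counts) and eHDAC6-Guide2 2.50, 1.90 and 2.87. With GATA1TSS-Guide1 the levels were 5.16, 3.68 and 3.42, and with GATA1TSS-Guide2 1.46, 5.23 and 2.09 CPM. NC-Guide3 replicate 3 was lowest of all libraries with 6 counts, and GATA1TSS-Guide2 replicate 2 was again the highest of its guide. The log2 change was -2.21 (SE 0.44) with eHDAC6 and -1.27 (SE 0.39) with GATA1TSS against all controls, and -1.36 (SE 0.44) and -0.43 (SE 0.40) against the 4. Across the 24 libraries the log2 levels of KCNJ16 and LINC01028 had a Pearson r of 0.88, which was 0.95 over the 12 controls and 0.85 after the mean of each guide was removed. That is a description over libraries that share guides, depth and the control division.

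**Figure D2:**
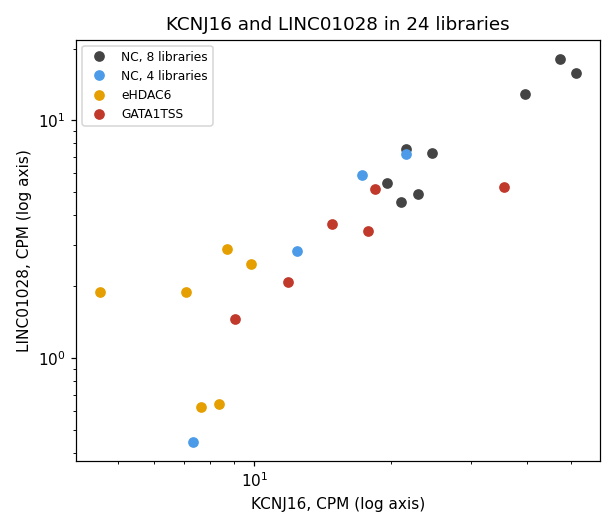
LINC01028 (vertical axis) against KCNJ16 (horizontal axis) in CPM, both axes on a log scale, 1 point per library, coloured by element and control set. The points rise together, the 6 eHDAC6 points lie at the low end with the control library NC-Guide3 replicate 3, and GATA1TSS-Guide2 replicate 2 lies at 35.5 CPM of KCNJ16 apart from the other GATA1TSS points.

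Of 10 further genes of inward rectifier channels in the table used here 4 were tested. KCNJ11, the pore subunit (Kir6.2) of ATP-sensitive potassium channels, fell by 0.86 with GATA1TSS (SE 0.15, edgeR adjusted p = 7.08e-05) and by 0.57 with eHDAC6 (SE 0.14, edgeR adjusted p = 0.00397), each in 6 of 6 libraries, from 5.73 ± 1.52 CPM. Against the 4 controls it fell by 0.54 with GATA1TSS (SE 0.17, edgeR adjusted p = 0.0396, 5 of 6 libraries) and with eHDAC6 the change was -0.25 and not called (edgeR adjusted p = 0.515). KCNJ8, KCNJ14 and ABCC9 did not pass. Against all controls 13.7% of tested genes fell with GATA1TSS and 15.3% with eHDAC6. KCNJ2, the channel gene nearest to KCNJ16, was below the filter.

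TPRXL (chromosome 3, 13978807 to 14107481, plus strand, hg19) had levels of 24.1, 18.6 and 14.3 CPM with NC-Guide1, above all other libraries. The 5 other libraries of the 8 controls ran from 9.08 to 12 CPM, and the 4 controls stood at 6.04, 9.11, 4.83 and 4.73. eHDAC6-Guide1 gave 4.15, 4.52 and 6.45 CPM and eHDAC6-Guide2 6.35, 3.27 and 4.39. GATA1TSS-Guide1 gave 6.10, 1.91 and 3.68, and GATA1TSS-Guide2 1.46, 3.64 and 2.99 CPM. Only GATA1TSS-Guide2 lay below every control, and the eHDAC6 libraries overlapped with the 4. The log2 change was -1.74 (SE 0.24) with GATA1TSS and -1.08 (SE 0.23) with eHDAC6 against all controls, and -0.97 (SE 0.27) and -0.31 (SE 0.26) against the 4. Its levels went with those of UNC5B: r was 0.88 over the 24 libraries, 0.88 over the 12 controls and 0.77 after the mean of each guide was removed. UNC5B and FLT1, in contrast, had r of -0.14, 0.15 and -0.26.

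**Figure D3:**
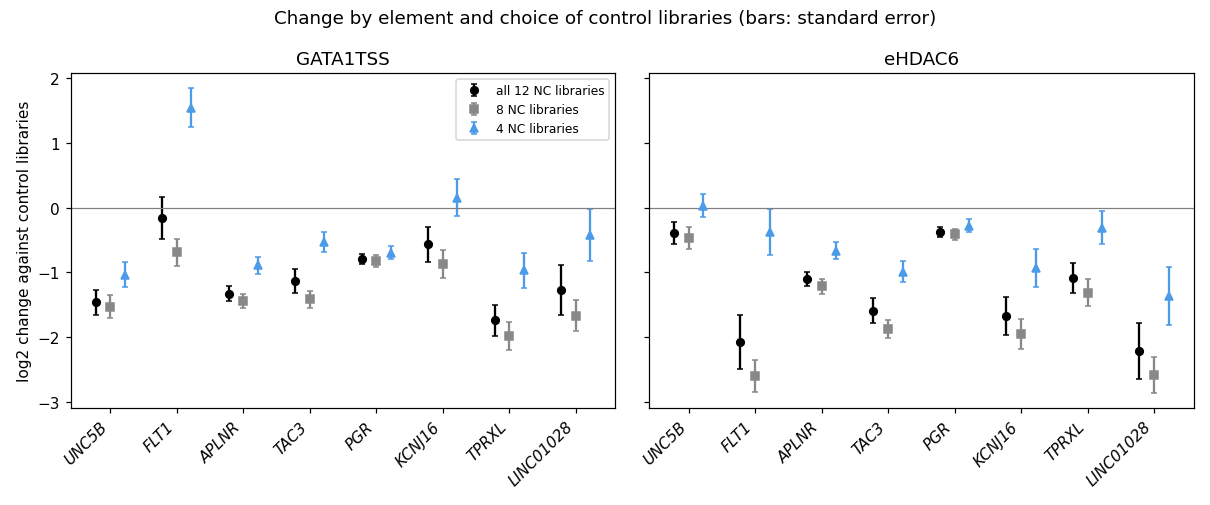
edgeR log2 change (vertical axis) of each gene with GATA1TSS (left) and eHDAC6 (right) against all 12, the 8 or the 4 control libraries, with bars of 1 standard error. Against the 4 the FLT1 point with GATA1TSS lies at 1.54 and the UNC5B point with eHDAC6 at 0.03, while APLNR, TAC3 and PGR lie below 0 in each comparison.

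Counted over the 8 genes, 6 were lower with GATA1TSS at an edgeR adjusted p under 0.05 (all but FLT1 and KCNJ16), a threshold that 13.7% of the tested genes passed in that direction and 13.5% in the other. With eHDAC6 7 were lower (all but UNC5B), against 15.3% of tested genes lower and 15.8% higher. Medians of the 8 log2 changes were -1.21 and -1.34, against -0.00 and -0.01 over all tested genes, and since the genes were chosen on these comparisons nothing is read from the counts. By guide, 4 were lower with GATA1TSS-Guide1 (5.8% of genes), 6 with GATA1TSS-Guide2 (12.4%), 7 with eHDAC6-Guide1 (7.35%) and 7 with eHDAC6-Guide2 (8.91%), all against the 12 controls. Against the 4 controls the counts by guide were 0 with GATA1TSS-Guide1 (0.137% of genes), 5 with GATA1TSS-Guide2 (9.86%), 0 with eHDAC6-Guide1 (0.114%) and 2 with eHDAC6-Guide2 (0.754%). In edgeR 3 of the 8 genes with GATA1TSS-Guide1 and 5 with eHDAC6-Guide1 were then under 0.05 before adjustment, in either direction. FLT1 was higher in that comparison with GATA1TSS-Guide1, by 1.08 (SE 0.34). Against the 8 controls all 8 were lower with GATA1TSS (14.2% of genes) and with eHDAC6 (15.8%). Against the 4, GATA1TSS gave 5 lower (5.39% of genes), UNC5B, APLNR, TAC3, PGR and TPRXL, and FLT1 higher (4.84%). eHDAC6 against the 4 gave 2 lower, APLNR and TAC3, where 0.587% of genes were lower and 0.899% higher. Leaving out 1 library at a time gave 5 to 7 lower genes for GATA1TSS and 7 to 8 for eHDAC6, with the least without GATA1TSS-Guide2 replicate 1, and LINC01028 lost its GATA1TSS call without that library or GATA1TSS-Guide2 replicate 3.

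By the plainer measure of ranges that do not meet, every GATA1TSS library was below every control for APLNR and TAC3 (0.996% of genes), and every eHDAC6 library for APLNR, TAC3 and PGR (0.753%). The same genes met this against the 4 controls alone, where 2.89% and 1.99% of genes do. Against the 8 controls the genes were APLNR, TAC3 and TPRXL with GATA1TSS (4.84%) and all but UNC5B with eHDAC6 (7.3%). GATA1TSS-Guide2 taken alone was below every control for UNC5B, APLNR, TAC3, PGR and TPRXL (5.14%), and for FLT1 it was above each of the 4 controls (12.4%).

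Direct contrasts between targeting guides set no control level against them, although their spread was estimated over all 24 libraries. eHDAC6 was lower than GATA1TSS for FLT1 (0.654% of genes lower) and higher for UNC5B and PGR (0.875% higher), with log2 differences of -1.91 (SE 0.45), 1.07 (SE 0.21) and 0.41 (SE 0.09). For PGR the order differed by guide. Its mean with GATA1TSS-Guide1, 14.3 CPM, was above those with eHDAC6-Guide1 and eHDAC6-Guide2, 12.9 and 12.3 CPM, and only GATA1TSS-Guide2, at 6.29 CPM, was below them. GATA1TSS-Guide2 was lower than GATA1TSS-Guide1 for UNC5B, APLNR and PGR (1.7% of genes). None of the 8 genes differed between the eHDAC6 guides, where edgeR called 2 of 13147 genes (0.0152%, with 477 at an unadjusted p under 0.05) and DESeq2 3. For FLT1 and LINC01028 these guides were still apart by 0.94 (SE 0.75) and 1.21 (SE 0.80), which does not show that they act alike.

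**Figure D4:**
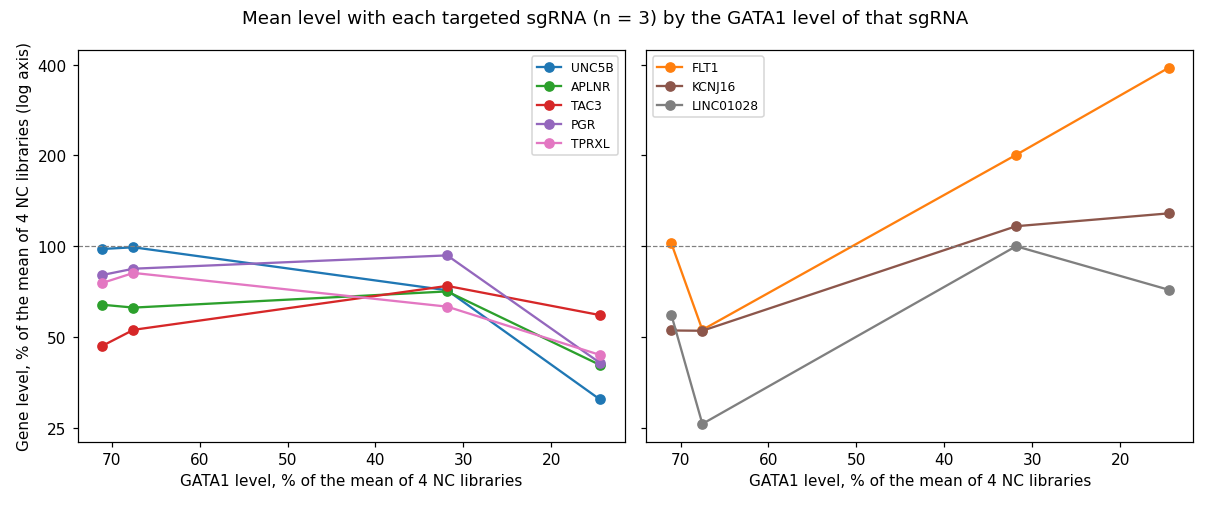
Mean level with each targeting guide (n = 3; vertical axis, log scale, percent of the mean of the 4 control libraries) against the GATA1 level with that guide (horizontal axis, percent of the same controls, falling to the right). UNC5B, PGR, APLNR and TPRXL are lowest at the right, where GATA1 is at 14.5%, while FLT1 is highest there at 390%. That FLT1 mean, 8.32 CPM, compares with 9.25 CPM in the 8 other control libraries. The KCNJ16 mean at the right includes GATA1TSS-Guide2 replicate 2 at 35.5 CPM, against 9.05 and 11.9 CPM in replicates 1 and 3.

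Set against the 4 controls, GATA1 stood at 71.1%, 67.5%, 31.9% and 14.5% with eHDAC6-Guide2, eHDAC6-Guide1, GATA1TSS-Guide1 and GATA1TSS-Guide2. UNC5B stood at 97.9%, 99.2%, 71.5% and 31.1% in that order, and PGR at 80.3%, 84.2%, 93.3% and 41.1%. TAC3 was lowest with eHDAC6-Guide2, at 46.8%, and stood at 52.8%, 73.9% and 59.2% with the others. FLT1 went the other way, from 102% and 52.8% to 201% and 390%. These shares use the controls in which FLT1 was low. Its mean with GATA1TSS-Guide2, 8.32 CPM, was below that of the 8 controls, 9.25 CPM. The 201% with GATA1TSS-Guide1 includes replicate 2 at 7.96 CPM, against 1.99 and 2.90 CPM in replicates 1 and 3. KCNJ16 was near 52.5% with both eHDAC6 guides and at 117% and 129% with the start site guides. The 129% with GATA1TSS-Guide2 rests on replicate 2, at 35.5 CPM. Replicates 1 and 3 of that guide, at 9.05 and 11.9 CPM, lay below the mean of the 4 controls, 14.6 CPM. Only UNC5B and TPRXL had lower means with both start site guides than with both eHDAC6 guides, and with GATA1TSS-Guide1 their replicates overlapped with eHDAC6.

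The control guides were themselves compared for the 8 genes. UNC5B, APLNR and TPRXL differed among the 4 control guides in edgeR, as did 12.3% of tested genes. The difference between the 8 and the 4 controls was 2.12 on the log2 scale for FLT1, 1.53 for LINC01028, 1.09 for TPRXL, 1.08 for KCNJ16, 0.82 for TAC3, 0.63 for APLNR, 0.60 for UNC5B and 0.15 for PGR. Ranked among all tested genes these lie at percentiles 99.9, 99.7, 99.0, 98.9, 97.4, 95.3, 94.8 and 71.0. FLT1, APLNR and TAC3 had each of the 4 below each of the 8, as did 5.9% of genes. Against the 4 controls stress response genes still fell by edgeR with GATA1TSS (13 of 13, median -0.69) and with eHDAC6 (5 of 13, median -0.41). Of all tested genes 5.39% fell with GATA1TSS against the 4 and 0.587% with eHDAC6. By edgeR 0 of 10 globins passed with either element, and 0 had an unadjusted p under 0.05. The part of that state in the levels of the 8 genes was not tested.

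The 8 guides were ordered by mean level for each gene, and steps were noted at which the replicates of neighbours in the order did not meet. Of all tested genes 28% have at least 1 such step, 4.56% at least 2 and 0.768% at least 3. For UNC5B these were NC-Guide1 above NC-Guide3 and GATA1TSS-Guide1 above GATA1TSS-Guide2. APLNR had 3 such steps, NC-Guide2 above NC-Guide4, NC-Guide3 above GATA1TSS-Guide1 and eHDAC6-Guide1 above GATA1TSS-Guide2. TAC3 had 1, between NC-Guide3 and GATA1TSS-Guide1, and PGR 2, NC-Guide1 above NC-Guide3 and eHDAC6-Guide2 above GATA1TSS-Guide2. For FLT1 the single step was eHDAC6-Guide2 above eHDAC6-Guide1 and for TPRXL NC-Guide1 above NC-Guide2. KCNJ16 and LINC01028 had none.

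Genes with the most similar pattern over the 24 libraries were ranked by Pearson r of log2 levels among the 9968 tested genes that averaged 5 CPM or more. UNC5B was most like ALDH2 (r 0.96), PPP1R15A (0.93) and RAB11FIP1 (0.93), FLT1 like PSMD5-AS1 (0.90), GUSBP1 (0.89) and SFPQ (0.89), and APLNR like C10orf71, SPTB and RAB6B (0.97, 0.96 and 0.96). TAC3 was nearest to SRD5A3-AS1, HAX1 and SRD5A3 (0.91 each), and PGR to PTGER3, NMU and KLF1 (0.93 each). For KCNJ16 the nearest were GPC6, GMDS-AS1 and CCDC144NL (0.93 each), for TPRXL SEL1L, AKNA and COLGALT2 (0.95, 0.94 and 0.93), and for LINC01028 KIF9-AS1, MAK and LOC440910 (0.92, 0.88 and 0.88). These are the highest of many values over libraries that share guides and the control division.

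Genes near the 8 were examined as well. Of 18 with a start within 100 kb, 9 were tested, and with GATA1TSS 2 rose and 2 fell, with eHDAC6 2 rose and 1 fell. Over all tested genes 13.5% rose and 13.7% fell with GATA1TSS, and 15.8% and 15.3% with eHDAC6, so the neighbours' counts are near those shares. NAB2, a corepressor of early growth response factors that starts 72.3 kb from TAC3, rose by 0.72 with GATA1TSS (SE 0.08, edgeR adjusted p = 1.22e-07, 6 of 6 libraries) and by 0.26 with eHDAC6 (SE 0.08, edgeR adjusted p = 0.0119, 6 of 6). STAT6, the signal transducer of interleukin-4, which starts 93.7 kb from TAC3, rose by 0.35 (SE 0.06, edgeR adjusted p = 6.87e-05) and 0.34 (SE 0.06, edgeR adjusted p = 0.000158). Near APLNR, TNKS1BP1 fell with GATA1TSS by 0.28 (SE 0.06, edgeR adjusted p = 0.000433, 5 of 6 libraries), and SSRP1, a subunit of the histone chaperone FACT, fell with eHDAC6 by 0.15 (SE 0.04, edgeR adjusted p = 0.00986). Against the 4 controls NAB2 (0.60, edgeR adjusted p = 2.34e-05) and TNKS1BP1 (-0.29, edgeR adjusted p = 0.00621) still passed with GATA1TSS, and none passed with eHDAC6 (0 of 9 at an unadjusted p under 0.05). The nearest tested coding neighbour of TAC3, ZBTB39, with a start 10.0 kb away, differed by -0.04 (SE 0.05) with each element and was not called. NEMP1, RDH16 and LINC01497 were not called with either element, and NEMP1, the best measured of them, differed by 0.05 (SE 0.04) with GATA1TSS and 0.00 (SE 0.04) with eHDAC6.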

How the data were processed

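RNA was measured by strand-specific, paired-end sequencing of polyadenylated RNA in 24 K562 libraries, 8 sgRNAs with 3 biological replicates each. The values deposited by the authors are whole-number counts per RefSeq gene on hg19 for 21925 entries. Per the submitters' processing notes, the tools included TopHat2 2.0.8, Bowtie2 2.1.0, SAMtools 0.1.19 and Picard, while the counter and its strand setting were not given in the sources used here. Total counts were 4290343 to 23205811 (median 13479250.5), and genes under about 1 CPM rest on few reads, so only large differences can be seen for them.

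Counts were scaled by TMM and fitted with edgeR 4.0.16 in R 4.3.3 (quasi-likelihood test, 1 coefficient per sgRNA, all 24 libraries). Genes passed filterByExpr with a minimum count of 10, a minimum total of 15 and a proportion of 0.7, which left 13147. P-values were adjusted by Benjamini-Hochberg over these, with calls at 0.05. Standard errors were taken from the F statistic. Log2 levels used a prior count of 2. The contrasts were each element and each sgRNA against the controls, eHDAC6 against GATA1TSS, the sgRNAs of an element against each other, and the control sgRNAs among themselves. The procedure was tested on simulated data. Alternatives were DESeq2 1.42.0, other scaling and filters, other control libraries, a replicate block, counts summed per sgRNA, and leaving out libraries or sgRNAs.

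The 8 genes and the gene lists were chosen with earlier results of these data known. Genes named were the 8, GATA1, HDAC6, up to 4 called genes with the largest change per pathway list, each tested gene with a start within 100 kb, and the 3 genes of most similar pattern. A result of the apelin and tachykinin list is not reported here. Promoter sequences are RefSeq's on GRCh38.p14, and gene positions come from the deposited hg19 models; no position was converted. Replicate numbers pair no samples in the labels. In the counts, of 84 pairs of libraries with the same number, 8 had a correlation of deviations over 0.1 (median 0.016, highest 0.431). The control division did follow replicate number within NC-Guide3 and NC-Guide4.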

Additional observations from a re-analysis of the deposited data

Results flagged for a closer look

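KCNJ16 in GATA1TSS-Guide2 replicate 2, at 35.49 CPM, stood apart from the other GATA1TSS libraries, which ran from 9.05 to 18.5 CPM. It was the only library so far from the rest of its group among 16 groups of 6 examined, and since chance marks about 1 in 20 such groups, 1 among 16 is near what chance gives. That library had the lowest total count, 4290343, and a LINC01028 level of 5.23 CPM; the part of depth in this value was not tested.

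Near the chosen genes, both elements were compared directly for their neighbours. NAB2 had a log2 difference of eHDAC6 minus GATA1TSS of -0.453 (SE 0.09, edgeR adjusted p = 0.00704), from mean levels of 32.6 CPM with eHDAC6, 44.9 with GATA1TSS and 27.5 in controls. TNKS1BP1 had a difference of 0.281 (SE 0.07, edgeR adjusted p = 0.0228), from 125 CPM with eHDAC6, 103 with GATA1TSS and 125 in controls. The call of TNKS1BP1 was lost without any 1 of 6 libraries: eHDAC6-Guide1 replicate 1 or 3, eHDAC6-Guide2 replicate 1, GATA1TSS-Guide1 replicate 2 or 3, or GATA1TSS-Guide2 replicate 1. That of NAB2 was lost in 0 of the 24 fits that leave out 1 library and in 6 of 14 others, among them those without GATA1TSS-Guide2, without eHDAC6-Guide1 and with counts summed per sgRNA. Both also differed between the start site guides, NAB2 by 0.43 (edgeR adjusted p = 0.0469) and TNKS1BP1 by -0.38 (edgeR adjusted p = 0.0193).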

How the results depend on the processing

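Genes called over the whole table depended most on the controls and on the sgRNA as the unit. GATA1TSS against controls gave 3580 genes, 1343 against the 4 control libraries, 632 with counts summed per sgRNA and 1625 without GATA1TSS-Guide2. eHDAC6 against controls gave 4088 genes, 195 against the 4, 280 summed, 2219 without eHDAC6-Guide1 and 1993 without eHDAC6-Guide2, and its share of higher calls went from 50.8% to 60.5% against the 4. eHDAC6 against GATA1TSS gave 201 genes, 390 with DESeq2, 306 without the filter, 15 with 1 coefficient per element, 0 summed (edgeR), 915 without GATA1TSS-Guide1, 4 without GATA1TSS-Guide2, 34 without eHDAC6-Guide1 and 45 without eHDAC6-Guide2. Among the control sgRNAs 1618 differed, and 2597 with DESeq2. Leaving out 1 library or 1 replicate number gave 1868 to 3969 for GATA1TSS, 2040 to 4587 for eHDAC6, 8 to 426 between the elements, 25 to 636 between the start site sgRNAs (457), 0 to 16 between the eHDAC6 sgRNAs (2) and 0 to 3249 among the control sgRNAs. No value of the 8 genes called against all 12 controls changed sign in an alternative. FLT1 with GATA1TSS, not called there, was called lower against the 8 (-0.69) and higher against the 4 (1.54), and the cause of the moved counts was not tested.

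With a replicate block the counts were 3628, 4081, 222, 507, 2 and 1729 in the order of these ranges, none moved by over 1.5 times, and 7 of 24 libraries correlated best with their own number, so the block stands here as a setting and not as a pairing. Of the 8 genes, APLNR and TAC3 kept their calls with both elements in all alternatives run, and TPRXL with GATA1TSS. The genes were chosen on these same comparisons and libraries. Kept calls and kept signs therefore describe the fits and are no test of the genes. Summing counts per sgRNA ended those of UNC5B, PGR and LINC01028 with GATA1TSS and of PGR and TPRXL with eHDAC6. LINC01028 levels under 1 CPM rest on 6 to 10 counts.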
